A study of Rattus norvegicus with 24 samples.

Results

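The ionotropic glutamate receptors of the AMPA and NMDA classes were followed in the nucleus accumbens (NAc) of P14 rat pups from lineages exposed to oxycodone. The set held 10 genes of the 23950 in the files, taken by gene family: 4 AMPA receptor subunits (Gria1, Gria2, Gria3, Gria4) and 6 NMDA receptor subunits (Grin1, Grin2a, Grin2b, Grin2c, Grin2d, Grin3a). All 10 were present in all 24 libraries. The Grin2a to Grin2b ratio of each library was added as a measure of receptor maturation.

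Sprague Dawley rats formed 6 groups of 4 libraries, with replicates from separate litters. In the in utero oxycodone (IUO) lineage, F0 females received oxycodone by oral gavage at 10 mg/kg/day for 5 days. The dose then climbed by 0.5 mg/kg/day for 10 days to 15 mg/kg/day and was held through mating, gestation and nursing. In the postnatal oxycodone (PNO) lineage, F0 dams received 15 mg/kg/day only from parturition to weaning, so that F1 pups met the drug through milk. The third lineage was the saline control (SAL). F1 animals received no oxycodone of their own, and F2 pups came from untreated F1 females mated with males naive to the experiment. Pups were of either sex, and the sex behind each library was not given in the sources used here. All RNA came from bulk tissue cut from sections of the P14 brain, with values in FPKM (fragments per kilobase of transcript, scaled to the size of the library).

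AMPA receptors are tetramers of GluA1 to GluA4 (Gria1 to Gria4) that carry most fast excitatory current. The GluA2 subunit, once edited, keeps calcium out of the channel. NMDA receptors need the GluN1 subunit encoded by Grin1, joined by GluN2 subunits (Grin2a to Grin2d) that set channel kinetics or by GluN3 subunits such as Grin3a, which lower calcium flow. In many forebrain regions GluN2B dominates early in life and GluN2A increases as synapses mature. In the NAc, medium spiny neurons receive glutamate through these receptors from cortex, thalamus, hippocampus and amygdala.

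The tissue label was checked against 10 markers of striatal medium spiny neurons, among them Drd1, Drd2, Ppp1r1b and Adora2a. None of the 10 was listed at 0 in any library, and their summed FPKM ran from 432.6 to 1393. Markers of neighbouring tissue varied more: the summed FPKM of 8 thalamus markers ran from 81.74 to 461.6, that of 8 cortical excitatory neuron markers from 15.15 to 379.7, and that of 8 choroid plexus markers from 4.73 to 12250. Library sums of FPKM ran from 535866 to 766781, with F2 PNO replicate 1 and F2 IUO replicate 4 at the top. Sequencing depth is unknown from FPKM, so no counting interval can be given.

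Grin1 (ENSRNOG00000011726), the obligatory NMDA receptor subunit, had the highest level of the 10 in all 24 libraries. Its mean was 117 ± 13.9 FPKM (SD, n = 24) and its range 86.57 to 140 FPKM. It was also the steadiest, with a coefficient of variation of 11.9% over the 24 libraries. Because the results below turn on this gene, the 250 bases before its annotated start are shown from RefSeq (build GRCr8, chr3:28528755-28529004, minus strand). The build behind the deposited values is not given in the sources used here. CpG dinucleotides are in capitals.

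Grin1: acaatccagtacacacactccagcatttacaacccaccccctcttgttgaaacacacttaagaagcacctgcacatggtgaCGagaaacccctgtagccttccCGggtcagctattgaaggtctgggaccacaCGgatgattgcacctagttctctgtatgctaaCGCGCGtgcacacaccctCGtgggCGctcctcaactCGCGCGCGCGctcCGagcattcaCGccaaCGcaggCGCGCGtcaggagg

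This window held 19 CpG, and most of them lay in its last stretch, next to the start. Of 33469 RefSeq windows of the same length, 18.4% held as many or more, against a median of 5. The GC box letters GGGCGG, searched on both strands, were not in this window and were found in 30.5% of all windows. RefSeq windows were at hand for 5 of the 10 subunits.

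Among the AMPA subunits, Gria2 (ENSRNOG00000054204) averaged 27.9 ± 12.7 FPKM and Gria1 (ENSRNOG00000045816) 26.7 ± 7.24 FPKM (SD, n = 24). These neighbours could not be ordered, since Gria2 was above Gria1 in only 10 of 24 libraries. Gria3 (ENSRNOG00000007682) followed at 20.1 ± 6.84 FPKM, below Gria1 in 17 of 24 libraries. Gria4 (ENSRNOG00000006957), the subunit with the lowest level of the family, averaged 9.16 ± 2.14 FPKM. Gria1 was the top AMPA subunit in 11 libraries, Gria2 in 8 and Gria3 in 5. As shares of summed AMPA subunit FPKM, Gria1 made up 32.5% on average, Gria2 32.4%, Gria3 23.9% and Gria4 11.2%.

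The order within the GluN2 family put Grin2c and Grin2d above the pair that defines forebrain maturation. Grin2c (ENSRNOG00000003280), best known from cerebellar granule cells, averaged 13.02 ± 2.03 FPKM (SD, n = 24) and was the top GluN2 subunit in 18 libraries. Grin2d (ENSRNOG00000021063), known from early development, diencephalon and interneurons, averaged 9.37 ± 3.06 FPKM and led in the other 6. Grin2b (ENSRNOG00000008766) averaged 5.11 ± 1.69 FPKM and Grin2a (ENSRNOG00000033942) 1.57 ± 0.761 FPKM. Of summed GluN2 FPKM, Grin2c gave 44.9%, Grin2d 32.0%, Grin2b 17.8% and Grin2a 5.3%.

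Grin3a (ENSRNOG00000005723), the GluN3A subunit of young synapses, averaged 4.67 ± 1.35 FPKM (SD, n = 24). Grin2b was above it in 12 of 24 libraries, so those neighbours did not differ beyond their spread. The same held for Grin2d and Gria4, with Grin2d the higher in 13 of 24. Grin2a was the lowest of the 10 in all 24 libraries. FPKM divides by transcript length, which lets levels of different genes be set side by side, but the result still depends on the transcript models used.

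**Figure D1:**
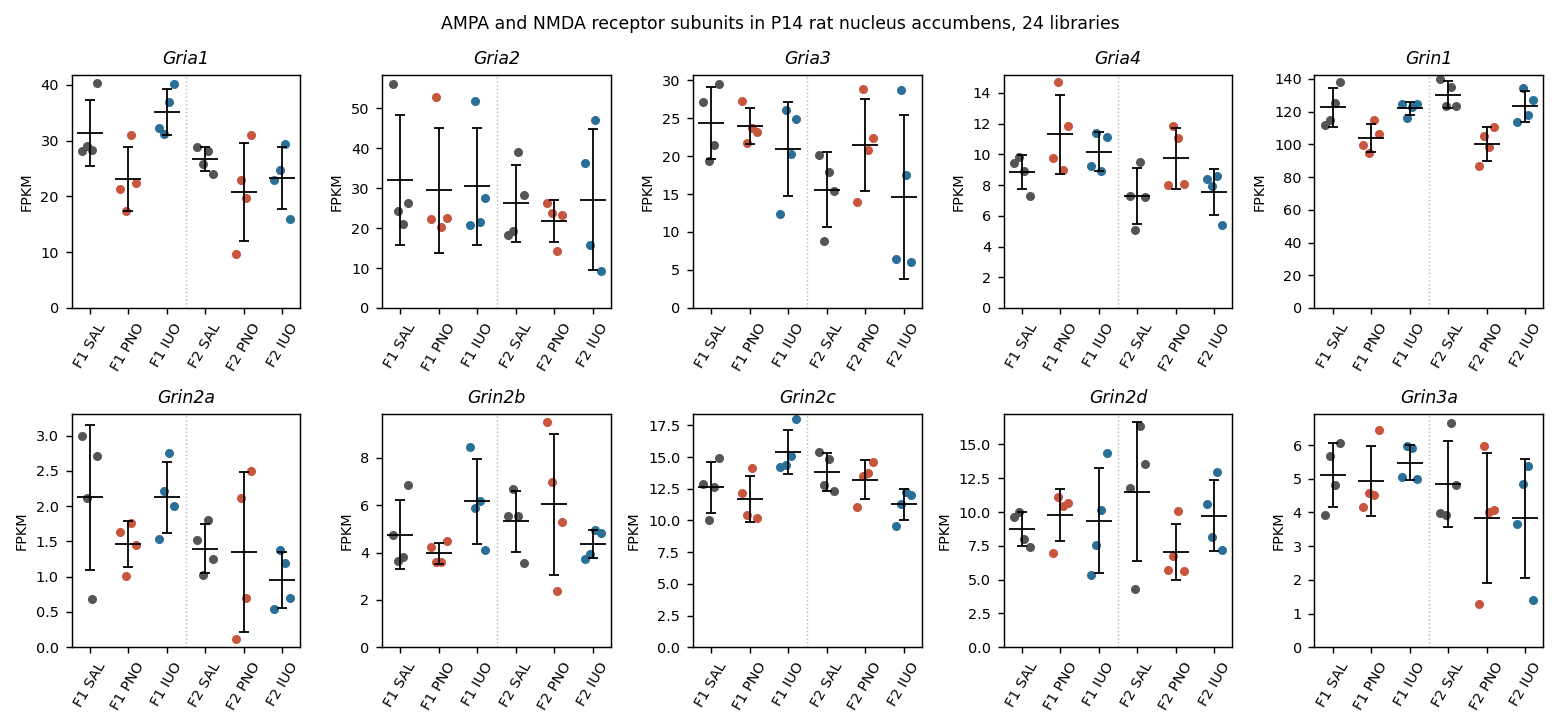
FPKM (linear axes from 0) of the 10 subunits in each of the 24 libraries, with 4 points per group, the group mean as a dash and the SD as bars. Grin1 sits between 86.57 and 140 FPKM, with the PNO points of both generations low, and Gria2 shows single high libraries near 50 FPKM.

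**Figure D2:**
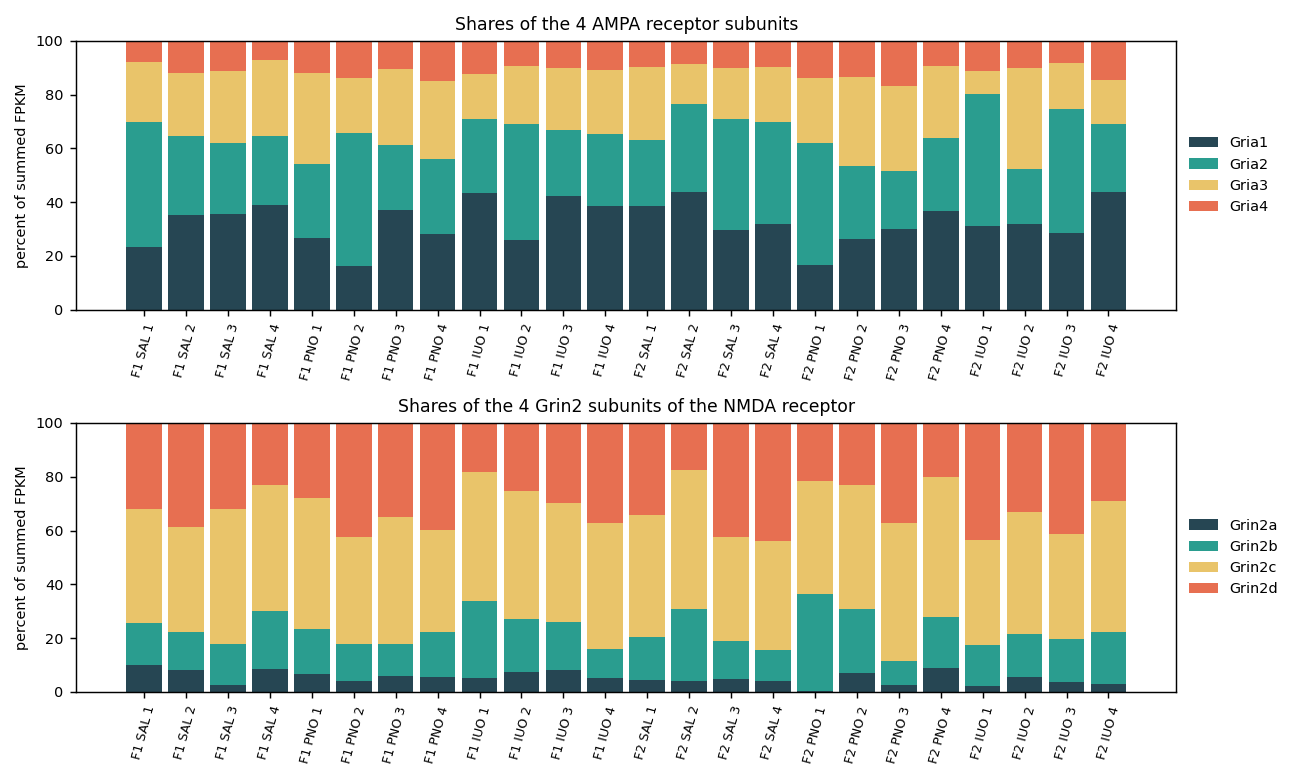
Shares of summed FPKM (percent, stacked to 100) of the 4 AMPA subunits (top) and the 4 GluN2 subunits (bottom) in each library. Grin2c is the largest GluN2 share in 18 of 24 libraries, and the Gria2 share varies more than that of Gria4.

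The Grin2a to Grin2b ratio was below 1 in all 24 libraries. In F1 SAL it was 0.633, 0.581, 0.178 and 0.396, in F1 PNO 0.388, 0.279, 0.490 and 0.324, and in F1 IUO 0.180, 0.377, 0.445 and 0.488. In F2 SAL it was 0.275, 0.153, 0.327 and 0.350, in F2 PNO 0.0116, 0.303, 0.293 and 0.472, and in F2 IUO 0.144, 0.350, 0.240 and 0.146. All groups overlapped, and the very low value of F2 PNO replicate 1 came from a Grin2a level of 0.11 FPKM.

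Group means of the ratio were 0.447 ± 0.206 in F1 SAL, 0.370 ± 0.0917 in F1 PNO and 0.373 ± 0.136 in F1 IUO (SD, n = 4 each). In F2 they were 0.276 ± 0.0881, 0.270 ± 0.191 and 0.220 ± 0.0977 for SAL, PNO and IUO. On the log2 scale with 0.1 added to each FPKM, none of the 9 comparisons passed a two-sided exact permutation test (70 assignments, smallest possible p 0.0286). Within generations the differences ran from -0.62 (F2 PNO minus F2 SAL, SE 1.06, exact p = 0.83) to 0.32 (F2 IUO minus F2 PNO, SE 1.06, exact p = 0.943). The smallest p was that of F2 IUO minus F1 IUO, at -0.68 ± 0.42 (SE, exact p = 0.143). After adjustment over the 9 comparisons every p was 0.943. The difference between generations in each oxycodone effect gave exact permutation p of 0.891 (IUO minus SAL), 0.823 (PNO minus SAL) and 0.849 (IUO minus PNO). The null of that permutation is no treatment difference in either generation.

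The ratio in F2 PNO turned on its replicate 1. Without it, F2 PNO minus F2 SAL was 0.39, F2 IUO minus F2 PNO was -0.70, and F2 PNO minus F1 PNO was -0.05. The saline groups turned on F1 SAL replicate 3, at 0.178. Without it F2 SAL minus F1 SAL went from -0.59 to -0.95, with groups that did not overlap (exact p = 0.0286), the smallest p that 3 against 4 libraries allow. That p was not adjusted for the omissions and comparisons tried. Summed cortical excitatory neuron markers were 15.15 FPKM in F1 SAL replicate 3, the lowest of the 24 libraries, and 27.23 FPKM in F2 PNO replicate 1. The part of this in the ratio was not tested.

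**Figure D3:**
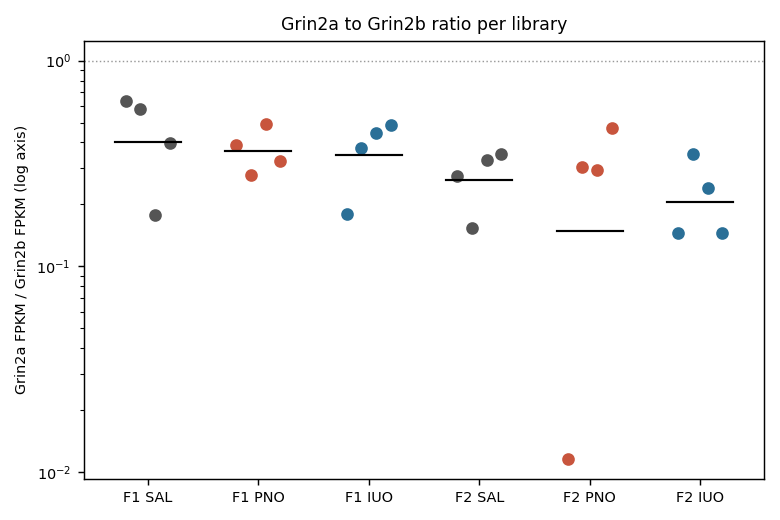
Grin2a FPKM over Grin2b FPKM in each library (log axis), 4 points per group, with the geometric mean as a line and a dotted line at 1. Every point lies below 1, groups overlap, and F2 PNO replicate 1 lies apart at 0.0116.

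The 10 subunits were next compared between groups with limma on log2(FPKM + 0.1), a scale that understates the change of low genes. All 10 passed the filter on low values in every comparison. No subunit passed an adjusted p of 0.05 in any comparison by limma (Benjamini-Hochberg over all genes tested). Of all genes, the share that passed it was 0.133% in F1 IUO against F1 PNO, 0.00576% in F2 PNO against F2 SAL, 0.0343% in F2 SAL against F1 SAL, 0.0288% in F2 PNO against F1 PNO and 0% in the other comparisons and interactions. A looser threshold was therefore used beside it. A gene is called past p below where its unadjusted limma p was under 0.05, which was so for 13 of 90 pairs of subunit and comparison. Of these 13, 5 also differed by a fold of means of at least 1.5 in either direction: Gria1 and Grin2b in F1 IUO against F1 PNO, Gria1 and Grin2a in F2 IUO against F1 IUO, and Gria3 in F2 SAL against F1 SAL. For each such subunit the p of a two-sided exact permutation test of 4 against 4 libraries is given, which cannot go below 0.0286. In bulk tissue, fewer cells of a type and less RNA per cell cannot be told apart, and this holds for every difference below.

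Grin1 was past p and lower in F2 PNO than in F2 SAL, with groups that did not overlap. It was past p and lower in F1 PNO against F1 SAL too, where the groups overlapped and 6 of 16 alternatives ended the call. In F2 SAL its FPKM was 140.02, 123.34, 135.10 and 123.27, and in F2 PNO 86.57, 104.86, 98.20 and 110.66. Every F2 PNO library was below every F2 SAL library. The means were 100 ± 10.3 and 130 ± 8.47 FPKM (SD, n = 4 each), 23.3% lower in PNO, with a log2 difference of -0.39 ± 0.11 (SE, exact permutation p = 0.0286, limma adjusted p = 0.372).

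Grin1 was the only subunit past p in F2 PNO against F2 SAL. Over all genes, 6.83% were past p and lower there, and 4.36% were lower with groups that did not overlap, so 1 of 10 was near the background in both counts. In each of 17 alternative analyses the Grin1 difference kept its side of p, at -0.44 to -0.31 on the log2 scale, with limma adjusted p of 0.101 to 0.691. Of the thalamus markers, 1 of 8 was past p and lower in F2 PNO, with a list median of 0.25. Of the cortical excitatory neuron markers, 1 of 8 was past p and lower, with a list median of -0.53 against -0.08 for all genes. The cortical sum was 27.23 FPKM in F2 PNO replicate 1, the library with the lowest Grin1. Also past p and lower were 1 of 5 pan-neuronal, 2 of 6 microglia and 2 of 4 oligodendrocyte precursor markers. Their summed FPKM in F2 PNO and F2 SAL ran from 862.4 to 1382 and 1186 to 1378 (pan-neuronal), 104 to 115.7 and 112.8 to 155.9 (microglia) and 97.41 to 147.6 and 131.3 to 163.6 (precursors). Of 3 blood markers, both that were tested were past p and higher in F2 PNO, with summed FPKM of 30.55 to 195.1 against 13.18 to 36.13. The part of these lists in the result was not tested. Without F2 PNO replicate 1 and F2 IUO replicate 4, the libraries with the highest FPKM sums, Gria3 (0.67) and Gria4 (0.51) were past p and higher in F2 PNO beside the lower Grin1.

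Against F2 IUO the same gap was seen. Grin1 in F2 IUO was 113.74, 134.68, 117.73 and 126.99 FPKM, all above the highest F2 PNO library. F2 IUO was 23.2% higher than F2 PNO, a log2 difference of 0.30 ± 0.11 (SE, exact permutation p = 0.0286, limma adjusted p = 0.640). Over all genes 4.59% were past p and higher, and 2.96% were higher with groups that did not overlap, against 1 of 10 subunits in both. The call was lost without F2 IUO replicate 2 (0.26), F2 IUO replicate 4 (0.29), F2 PNO replicate 1 (0.24) or F2 PNO replicate 3 (0.30), with an upper-quartile rescaling (0.29), with the cortical marker index as a covariate (0.20), and with both high-sum libraries left out (0.22). F2 IUO had 2 of 5 pan-neuronal markers past p and higher than F2 PNO. Their summed FPKM did not overlap, at 1496 to 1705 in F2 IUO and 862.4 to 1382 in F2 PNO. The part of this in the result was not tested.

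In F1, Grin1 was 111.71, 115.13, 125.31 and 138.19 FPKM in SAL and 99.68, 94.61, 114.68 and 106.30 FPKM in PNO. The groups overlapped, since F1 PNO replicate 3 lay above the lowest F1 SAL library. F1 PNO was 15.3% lower, with a log2 difference of -0.24 ± 0.10 (SE, exact permutation p = 0.0571, limma adjusted p = 0.326). F1 IUO, at 124.43, 115.88, 123.13 and 124.43 FPKM, lay wholly above F1 PNO, with a log2 difference of 0.24 ± 0.09 (SE, exact permutation p = 0.0286, limma adjusted p = 0.242). F1 IUO and F1 SAL had close means, 122 ± 4.10 and 123 ± 11.9 FPKM, and their log2 difference was 0.00 ± 0.10 (SE, exact permutation p = 0.886).

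The 2 generations share no libraries. The tests of a difference between them for Grin1 gave -0.15 ± 0.14 for PNO minus SAL (SE, unadjusted limma p = 0.313, exact permutation p = 0.499). For IUO minus PNO they gave 0.07 ± 0.14 (SE, unadjusted limma p = 0.6245, exact permutation p = 0.717). The permutation shuffles treatment labels within each generation. Its null is therefore no treatment difference in either generation, while limma tests for equal differences in both. Within each generation the SAL and IUO comparisons share the same PNO libraries.

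**Figure D4:**
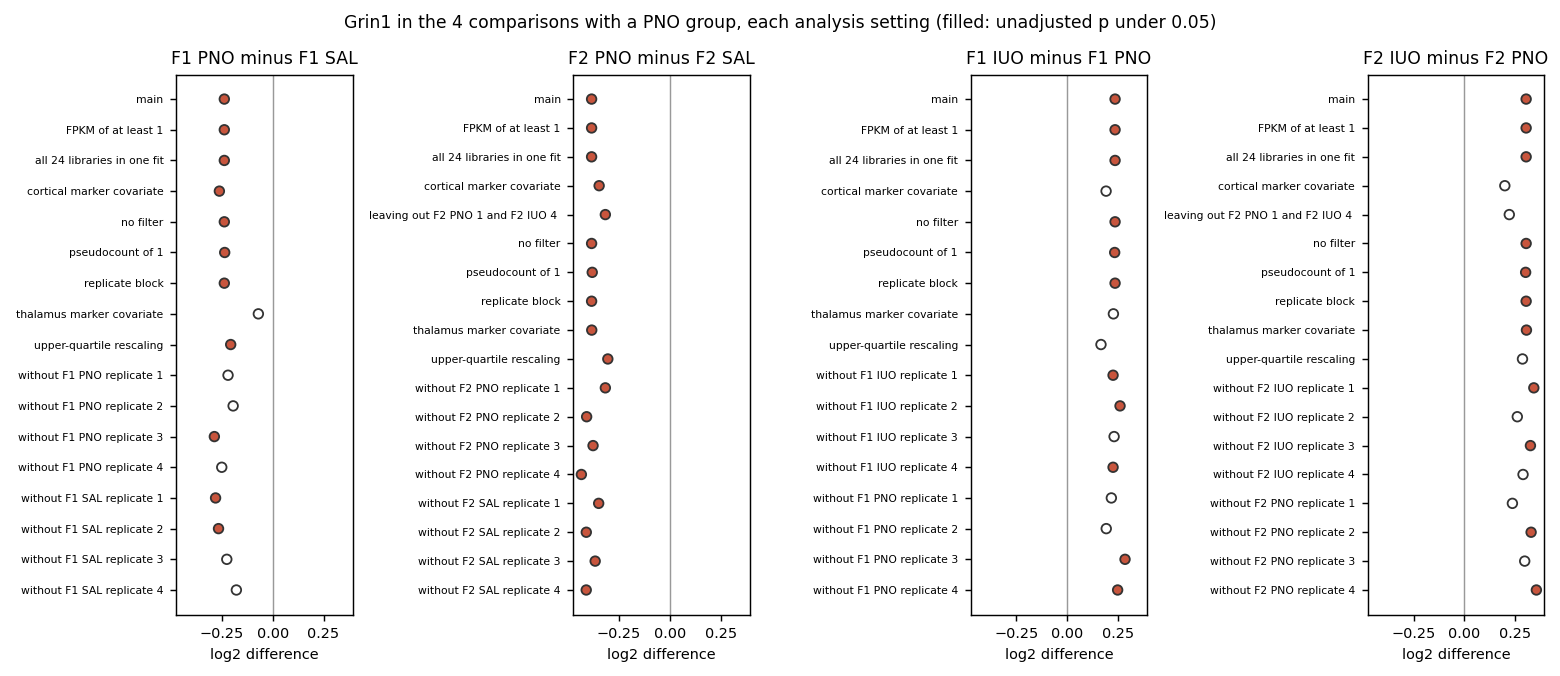
Log2 difference of Grin1 in the 4 comparisons that include a PNO group (x axis), under the main analysis and each alternative (rows), filled where the unadjusted limma p was under 0.05. F2 PNO minus F2 SAL is filled in every row, while F1 PNO minus F1 SAL moves from -0.24 to -0.07 with the thalamus marker index as a covariate.

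In F1 the PNO libraries also differed in tissue markers. The summed FPKM of the 8 thalamus markers was 195.8 to 461.6 in F1 PNO, 85.79 to 268.6 in F1 SAL and 81.74 to 305.1 in F1 IUO. Against F1 SAL, 7 of these 8 markers were past p and higher in F1 PNO, and 6 of 8 were past p and lower in F1 IUO relative to F1 PNO. Lhx9, listed at 0 in a library, was the single thalamus marker at 0 anywhere. Relative to F1 PNO, F1 IUO had 7 of 10 medium spiny neuron markers and 5 of 8 hypothalamus markers past p and higher. The summed hypothalamus markers ran from 46.1 to 162 FPKM in F1 IUO and from 6.3 to 15.74 FPKM in F1 PNO, with Pmch, Otp, Sim1 and Agrp listed at 0 in some library of the series. With the thalamus index as a covariate, the Grin1 difference in F1 PNO against F1 SAL was -0.07 and the Gria1 difference -0.18, neither past p.

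Gria1 encodes GluA1, the subunit whose delivery to synapses underlies much of AMPA receptor plasticity in the NAc. In F1 PNO it was 21.33, 17.36, 31.02 and 22.47 FPKM, in F1 SAL 28.16, 28.95, 28.29 and 40.29 FPKM, and in F1 IUO 32.27, 31.19, 36.87 and 40.08 FPKM. F1 IUO lay wholly above F1 PNO, and F1 PNO replicate 3 overlapped with F1 SAL. Gria1 was 26.7% lower in F1 PNO than in F1 SAL (log2 -0.46 ± 0.18, SE, exact permutation p = 0.114, limma adjusted p = 0.313). F1 IUO was 52.3% higher than F1 PNO (log2 0.63 ± 0.17, SE, exact permutation p = 0.0286, limma adjusted p = 0.145).

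Of the 10 subunits, 2 (Gria1 and Grin1) were past p and lower in F1 PNO than in F1 SAL, where 7.83% of all genes were past p and lower, and 0 of 10 had groups that did not overlap, against 8.27% of all genes. Both calls were lost without F1 PNO replicate 1 (Grin1 -0.22, Gria1 -0.43), replicate 2 (-0.19 and -0.34) or replicate 4 (-0.25 and -0.46) and without F1 SAL replicate 4 (-0.18 and -0.34). That of Grin1 was also lost without F1 SAL replicate 3 (-0.23), and that of Gria1 with all 24 libraries in 1 fit.

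F1 IUO against F1 PNO had the most subunits past p within a generation, 4 of 10, all higher in IUO: Gria1, Grin1, Grin2b and Grin2c. Over all genes, 10.1% were past p and higher in this comparison. Groups did not overlap, with IUO higher, for 3 of the 10 subunits (Gria1, Grin1 and Grin2c), against 6.26% of all genes in that direction. The median log2 difference of the 10 subunits was 0.20, and that of all genes 0.03.

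Grin2b, the GluN2 subunit of juvenile forebrain receptors, was 8.48, 5.89, 6.18 and 4.10 FPKM in F1 IUO and 4.23, 3.62, 3.59 and 4.48 FPKM in F1 PNO. F1 IUO replicate 4 fell among the PNO values, so the groups overlapped. The log2 difference was 0.58 ± 0.21 (SE, exact permutation p = 0.0857, limma adjusted p = 0.231), and 0.14 with the thalamus index as a covariate, not past p. The call was also lost without F1 IUO replicate 1 (0.41) or 3 (0.56) without F1 PNO replicate 2 (0.54) or 3 (0.53), with upper-quartile rescaling (0.51) and with all 24 libraries in 1 fit.

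Grin2c was 14.21, 14.34, 15.08 and 17.99 FPKM in F1 IUO and 12.13, 10.41, 14.13 and 10.23 FPKM in F1 PNO. All IUO values lay above the PNO values, the closest pair being 14.21 and 14.13 FPKM. The log2 difference was 0.40 ± 0.14 (SE, exact permutation p = 0.0286, limma adjusted p = 0.211), and the call was lost without F1 PNO replicate 2 (0.34) or 4 (0.34) and with the cortical marker index as a covariate (0.34). The Gria1 difference kept its side of p in all 16 alternatives, at 0.50 to 0.78, with limma adjusted p of 0.0733 to 0.366. That of Grin1 lost it with upper-quartile rescaling (0.17), with the thalamus (0.23) or cortical (0.19) index as a covariate, and without F1 IUO replicate 3 (0.23), F1 PNO replicate 1 (0.22) or F1 PNO replicate 2 (0.19). No alternative used a medium spiny neuron index as a covariate. In this comparison 7 of 10 of those markers were past p and higher in F1 IUO, with a list median of 0.63, and their part was not tested.

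The in utero lineage against saline gave no subunit past p in either generation by limma. In F1, where 3.91% of all genes were past p and 2.54% had groups that did not overlap (0 of 10 subunits), the 10 differences ran from -0.26 (Gria3) to 0.37 (Grin2b). In F2, where 8.49% were, the 10 log2 differences had a median of -0.24, and those of all genes -0.08. Grin2c had groups that did not overlap in F2, as 2.74% of all genes had with IUO lower: 9.56, 11.29, 12.28 and 11.99 FPKM in F2 IUO lay below 15.44, 12.83, 14.81 and 12.34 FPKM in F2 SAL. Its log2 difference was -0.29 ± 0.13 (SE, exact permutation p = 0.0286, limma adjusted p = 0.591). In F2 IUO, 5 of 8 cortical excitatory neuron markers were past p and higher than in F2 SAL, with summed FPKM of 196.9 to 379.7 and 150.8 to 244.1, and 2 of 10 medium spiny neuron markers and 2 of 6 microglia markers were past p and lower. Both tested blood markers were past p and higher in IUO than in SAL in each generation, with summed FPKM of 27.96 to 410.3 against 12.93 to 88.48 in F1 and 27.28 to 120.4 against 13.18 to 36.13 in F2. In F1 IUO, 4 of the 7 hypothalamus markers tested (8 listed) were past p and higher, with summed FPKM of 46.1 to 162 against 13.21 to 61.44. The part of these lists in the values was not tested.

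Grin2c was the subunit whose in utero difference passed p in the test between generations, though it was past p against SAL in neither. F1 IUO was 22.0% above F1 SAL (log2 0.29 ± 0.14, SE, exact permutation p = 0.0857), and F2 IUO 18.6% below F2 SAL. The interaction was -0.59 ± 0.19 (SE, unadjusted limma p = 0.00754, exact permutation p = 0.00327, limma adjusted p = 0.924). Against PNO it was -0.62 ± 0.20 (SE, unadjusted limma p = 0.00648, exact permutation p = 0.0049, limma adjusted p = 0.793), as F2 IUO lay 0.23 below F2 PNO on the log2 scale. These interactions share the IUO libraries. In the latter, 7 of 10 medium spiny neuron markers were also past p and lower, and in the interaction against SAL 0 of 10. Of 6 astrocyte markers, 1 was past p and lower against PNO and 0 against SAL, with list medians of -0.36 and -0.16. The mean astrocyte index was 5.99 in F1 IUO and 5.61 in F2 IUO, with ranges that overlapped. It was 5.87 and 5.83 in F1 and F2 SAL, and 5.77 and 5.80 in F1 and F2 PNO. The part of these lists in the results was not tested.

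Grin2c was the 1 subunit of 10 past p in each of these interactions, where 3.53% and 2.72% of all genes were past p and negative. Both kept their side of p in all 25 alternatives, at -0.67 to -0.48 and -0.74 to -0.55. The PNO minus SAL interaction had 0 of 10 past p by limma, against 4.06% of all genes.

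Between generations, the IUO lineage had the most subunits past p. Gria1, Gria4, Grin2a and Grin2c, 4 of 10, were past p and lower in F2 IUO than in F1 IUO, and the same 4 had groups that did not overlap. Over all genes 9.65% were past p and lower, and 7.24% were lower with groups that did not overlap. Generation cannot be told apart from the cohort in which each was bred and dissected.

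Gria1 in F2 IUO was 22.99, 24.65, 29.38 and 16.02 FPKM, all below the F1 IUO values above. The log2 difference was -0.62 ± 0.18 (SE, exact permutation p = 0.0286, limma adjusted p = 0.236), and it kept its side of p in all 17 alternatives. Grin2a, which encodes the GluN2A subunit of mature synapses, was 0.54, 1.38, 1.19 and 0.70 FPKM in F2 IUO and 1.53, 2.22, 2.75 and 2.0 FPKM in F1 IUO. Each F2 value was below each F1 value, with a log2 difference of -1.13 ± 0.36 (SE, exact permutation p = 0.0286, limma adjusted p = 0.237). With all 24 libraries in 1 fit it was no longer past p. Grin2c differed by -0.45 ± 0.14 (SE, exact permutation p = 0.0286, limma adjusted p = 0.239) and also kept its side of p in all 17.

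Gria4, the AMPA subunit with fast kinetics found in interneurons and thalamus, was 8.38, 7.95, 8.59 and 5.37 FPKM in F2 IUO and 9.22, 11.40, 8.92 and 11.12 FPKM in F1 IUO. The closest values were 8.59 and 8.92 FPKM, and its log2 difference was -0.44 ± 0.19 (SE, exact permutation p = 0.0286, limma adjusted p = 0.322). The call was lost without F1 IUO replicate 2 (-0.38) or 4 (-0.39) and without F2 IUO replicate 2 (-0.47) or 4 (-0.28), and with the replicate number as a block. Medium spiny neuron markers were 4 of 10 past p and lower in F2 IUO than in F1 IUO, with summed FPKM of 432.6 to 1061 and 875 to 1225. Oligodendrocyte precursor markers (2 of 4) and vascular markers (both that were tested, of 4) were also past p and lower, while 3 of 8 cortical excitatory and 2 of 5 pan-neuronal markers were past p and higher. Summed pan-neuronal markers ran from 1496 to 1705 FPKM in F2 IUO and from 1092 to 1343 FPKM in F1 IUO. The part of these lists in the results was not tested.

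Gria3, an AMPA subunit that pairs mostly with GluA2, was the 1 subunit past p in F2 SAL against F1 SAL, where 4.69% of all genes were past p and lower, and 0 of 10 subunits had groups that did not overlap, against 4.98% of all genes. It was 20.13, 8.75, 17.92 and 15.37 FPKM in F2 SAL and 27.10, 19.31, 21.45 and 29.45 FPKM in F1 SAL, with F2 SAL replicate 1 inside the F1 range. The log2 difference was -0.69 ± 0.25 (SE, exact permutation p = 0.0571, limma adjusted p = 0.573), and the call was lost without F1 SAL replicate 1 (-0.63) or 4 (-0.59) and with all 24 libraries in 1 fit. F2 PNO against F1 PNO had 0 of 10 past p by limma, against 4.76% of all genes, and 0 of 10 without overlap, against 3.34%.

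**Figure D5:**
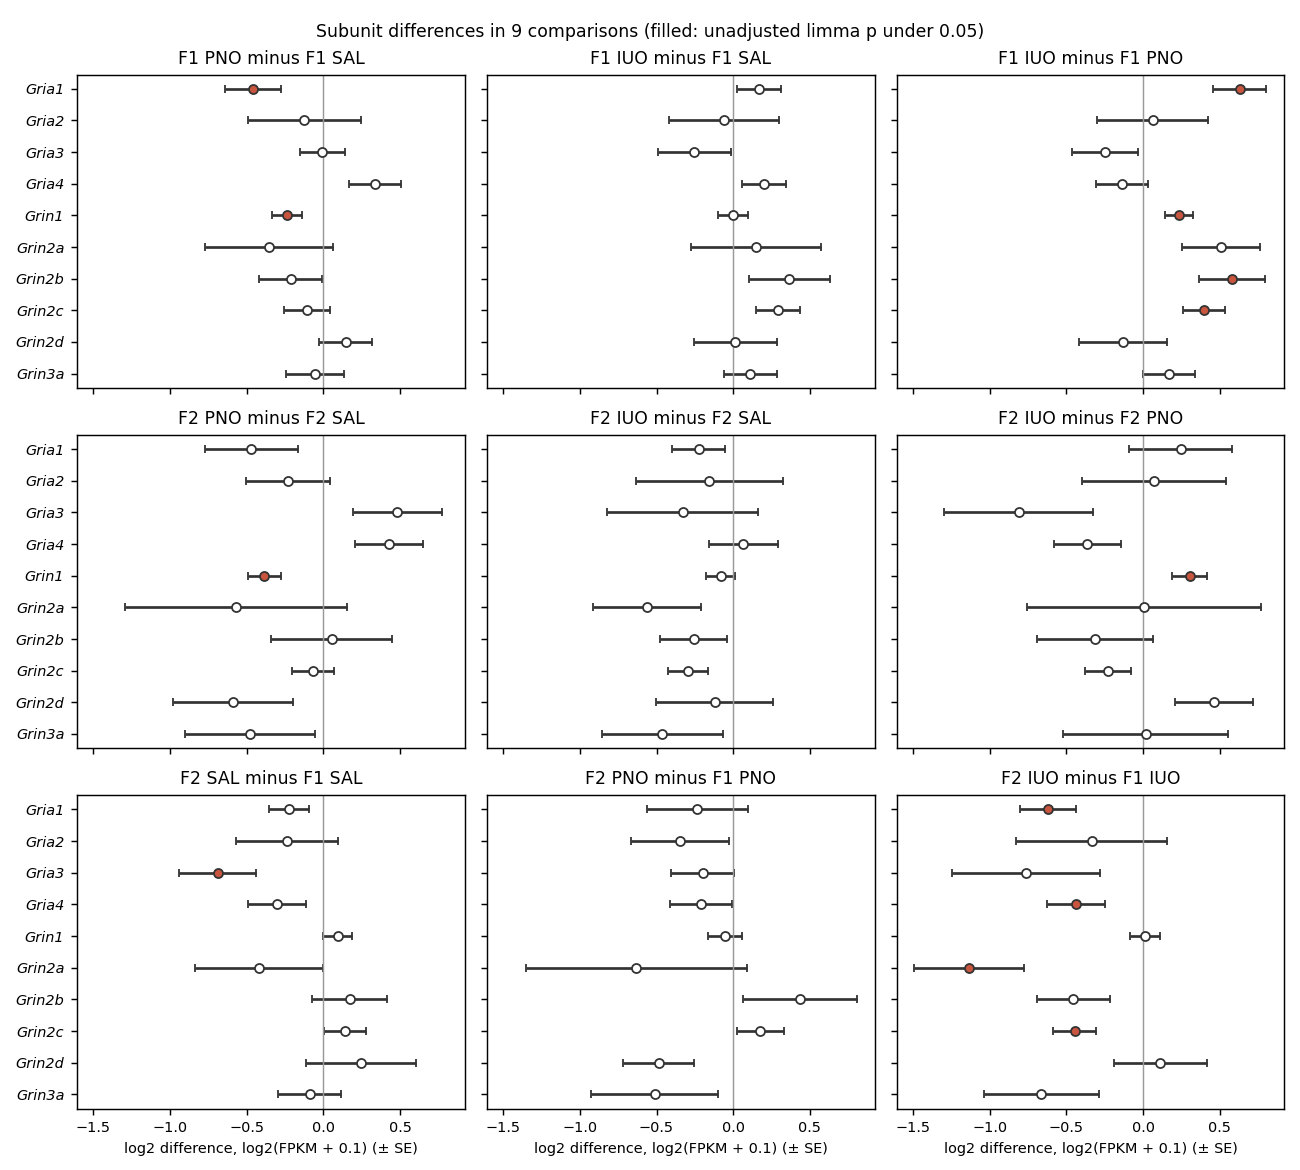
Log2 differences (x axis, log2(FPKM + 0.1), first group minus second) of the 10 subunits in the 9 comparisons, with SE bars from limma, filled where the unadjusted p was under 0.05. Grin1 is to the left in both PNO minus SAL panels with short bars, and 4 subunits are filled in F1 IUO minus F1 PNO and in F2 IUO minus F1 IUO.

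Another scaling moved the balance of higher and lower genes. Of the genes past p, the share that was lower went from 38.9% to 55.4% in F1 IUO against F1 PNO with upper-quartile rescaling, from 50.5% to 61.7% in F1 IUO against F1 SAL, and from 63.3% to 50% in F2 PNO against F2 SAL. It went from 64.3% to 42.3% in F2 IUO against F1 IUO and from 55.3% to 44.6% in F2 PNO against F1 PNO, and for the interactions from 68.5% to 48.4% (IUO minus SAL) and from 60.3% to 50% (PNO minus SAL). In F2 IUO against F1 IUO the rescaling shifted the median of all genes by 0.112, from -0.09 to 0.02. After it, Gria1 was -0.50, Grin2a -1.02 and Grin2c -0.33, all still past p and below that median, and Gria4 was -0.32, no longer past p.

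Gria2, Grin2d and Grin3a were past p in no comparison of the main analysis. Gria2, the subunit that blocks calcium entry, spread over a 6.03-fold range between libraries, and 6 libraries stood above 35 FPKM. These were F1 SAL replicate 1 (56.13), F1 PNO replicate 2 (52.84), F1 IUO replicate 2 (51.88), F2 IUO replicates 3 (47.18) and 1 (36.36) and F2 SAL replicate 3 (38.99). They came from 5 of the 6 groups, so the spread lay within groups. Grin3a ran from 1.29 to 6.66 FPKM, with its lowest values in F2 PNO replicate 1 and F2 IUO replicate 4, at 1.29 and 1.39 FPKM. Grin2d ran from 4.34 to 16.38 FPKM, with both ends in F2 SAL.

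Over the 24 libraries the 10 subunits were related to each other to varying degrees. The closest pairs by Spearman correlation of FPKM were Gria1 with Grin2c (0.68) and Gria1 with Grin2a (0.66), while Gria4 and Grin1 ran opposite (-0.52). Of 13676 genes with a mean FPKM of at least 1, the gene most like Grin1 was Adgrb2 (0.94). Those most like the other NMDA subunits were Atf6 for Grin2a (0.95), Cfp for Grin2b (0.72), Soga1 for Grin2c (0.84), Ccdc184 for Grin2d (0.87) and Pnma2 for Grin3a (0.77). For the AMPA subunits they were Btrc for Gria1 (0.93), Lnx1 for Gria2 (0.67), Ppp1r12a for Gria3 (0.85) and Dhx36 for Gria4 (0.88). These values describe 24 libraries that share groups and tissue makeup, and no p was attached to them.

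The wider glutamate synapse was read from 57 genes in 7 lists, of which 55 were tested. The lists were chosen with earlier results of these data known. Their counts, here and in the paragraphs that follow, are therefore descriptions and no test of the lists against all genes. None was past an adjusted p of 0.05 by limma, and the smallest was 0.0761. In F1 IUO against F1 PNO, 19 were past p and higher and 2 lower, against 10.1% and 6.41% of all genes, with a median of 0.25. In F1 PNO against F1 SAL, 3 were higher and 12 lower, against 6.11% and 7.83%, with a median of -0.12. In F2 PNO against F2 SAL, 0 were higher and 8 lower, against 3.97% and 6.83%, with a median of -0.31. The first pair of these comparisons shares the F1 PNO libraries. F2 IUO against F2 SAL had 3 higher and 7 lower (3.52% and 4.97% of all genes). F2 IUO against F2 PNO had 4 higher and 0 lower (4.59% and 2.48%), and F1 IUO against F1 SAL 3 higher and 0 lower (1.93% and 1.97%). Between generations, F2 IUO against F1 IUO had 2 higher and 12 lower (5.35% and 9.65%).

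Scaffold proteins, which hold receptors in the postsynaptic density, were the list with the most members past p. In F1 IUO against F1 PNO, 6 of 10 were past p and higher, with a list median of 0.39. Dlg2 (PSD-93) differed by 0.81 ± 0.14 (SE, limma adjusted p = 0.0761), from 18.7 ± 3.44 FPKM in F1 PNO to 32.5 ± 3.12 FPKM in F1 IUO (SD, n = 4 each). Dlg4 (PSD-95) differed by 0.50 ± 0.11, Shank3 by 0.49 ± 0.12 and Dlg1 (SAP97) by 0.36 ± 0.13. In F2 IUO against F1 IUO, 4 of 10 scaffold genes were past p and lower, namely Dlg2, Dlg1, Shank3 and Homer1, the last named after its values were seen.

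AMPA receptor auxiliary subunits, which govern trafficking and gating, had 4 of 13 tested members past p and lower in F2 PNO than in F2 SAL, beside the lower Grin1. Cacng8 (TARP gamma-8) was 19.8 ± 3.93 against 32.0 ± 3.69 FPKM (SD, n = 4 each), a log2 difference of -0.70 ± 0.17 (SE, limma adjusted p = 0.347). F2 IUO was past p and higher than F2 PNO, by 0.68 ± 0.19. Cnih2, a cornichon that slows AMPA receptor closing, was lower in F2 PNO than in F2 SAL by 0.27 ± 0.12 on the log2 scale, and Cacng4 by 0.22 ± 0.10. Cacng4 was also past p and lower in F2 IUO than in F2 SAL (-0.25 ± 0.11), and F2 IUO minus F2 PNO was -0.03. The other member past p and lower in F2 PNO than in F2 SAL was Cacng3, named after its values were seen. Shisa7 was past p and lower in F1 PNO than in F1 SAL (-0.64 ± 0.18) and in F2 IUO than in F2 SAL (-0.40 ± 0.18).

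Of the kainate and delta receptor subunits, 3 of 7 were past p and lower in F1 PNO than in F1 SAL, namely Grik3 (-0.89 ± 0.26), Grid1 (-0.60 ± 0.20) and Grik5 (-0.36 ± 0.15). Grid1 was also past p and lower in F2 IUO than in F2 SAL (-0.44 ± 0.15). Grik5 was past p in 4 of the 6 within-generation comparisons, and its level in F2 PNO was 50.2 ± 11.2 against 77.6 ± 4.71 FPKM in F2 SAL (log2 -0.65 ± 0.16, SE, limma adjusted p = 0.345). Among NMDA receptor partners, 4 of 8 were past p and higher in F1 IUO relative to F1 PNO, with Neto1 at 0.41 ± 0.14, Camk2b at 0.21 ± 0.09 and Grin3b at 0.96 ± 0.32, beside Camk2a, which was named after its values were seen. Grina was past p and lower in F2 PNO than in F2 SAL, at -0.33 ± 0.12, and past p and higher in F2 IUO than in F2 PNO, at 0.32 ± 0.11.

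Clustering partners of AMPA receptors went both ways in F1 PNO against F1 SAL, with 2 of 8 past p and higher and 1 lower. Nptx2, a secreted pentraxin, differed by 0.74 ± 0.29 and Olfm1 by 0.63 ± 0.24, while Grip1, which binds GluA2, differed by -0.33 ± 0.12. Nptx2 was past p in no other within-generation comparison. It differed by 0.25 in F1 IUO against F1 SAL, 0.22 in F2 IUO against F2 SAL and -0.32 in F2 PNO against F2 SAL. Olfm1 was also past p and lower in F1 IUO than in F1 PNO (-0.39) and higher in F2 IUO than in F2 SAL (0.37). In F1 PNO against F1 SAL, Slc17a6, the vesicular glutamate transporter of thalamic axons and also 1 of the 8 thalamus markers, differed by 1.74 ± 0.64. Slc1a2, the astrocyte glutamate transporter, differed by -0.63 ± 0.23 there. Both were also past p in F1 IUO against F1 PNO, Slc17a6 at -1.84 ± 0.51 and Slc1a2 at 0.97 ± 0.19 (SE, limma adjusted p = 0.0884 for Slc1a2). Of the 3 genes listed as editing enzymes, Adar (-0.36 ± 0.12) and Adarb2 (-0.84 ± 0.30) were past p and lower in F1 PNO than in F1 SAL. The other gene, Adarb1, was not among them.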

How the data were processed

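RNA was isolated from P14 NAc and sequenced on a commercial service. Per the labels' processing notes, HISAT2, SAMtools, StringTie and edgeR were used by the submitters, with versions, genome build and strand setting not given in the sources used here. The authors deposited FPKM from StringTie for each of the 24 libraries, after merging transcriptomes of all samples. No counts were recovered from these values, which are rounded to 0.01, and no pair of libraries was identical.

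For each comparison, genes were kept where 4 of the 8 libraries or more reached 0.1 FPKM. They were fitted with limma 3.58.1 (lmFit, eBayes with trend) in R 4.3.3 on log2(FPKM + 0.1), without a covariate, and tested on simulated data. The study's own rule, from another test, added a minimum fold change to an unadjusted p, and that fold was not used for calls here. The 10 subunits were read from the whole fit, with Benjamini-Hochberg adjustment over all genes. The ratio was tested by two-sided exact permutation. Interactions were fitted on 16 libraries, or permuted within generations (4900 assignments), the latter with a null of no treatment difference in either generation. Differences of 2 groups are first minus second. A marker index is the mean log2 value of a list. Tables and plots were made in Python 3.11.15.

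All 10 subunits were named. From the 7 pathway lists, genes past p in 2 or more of the 6 within-generation comparisons were named, with Grin3b, Nptx2 and Dlg4 in any case. A gene that met this rule is not reported here. For likeness, the 3 genes with the highest Spearman correlation over 24 libraries were found among those with a mean FPKM of at least 1, and the first is given. The members and lists were chosen with earlier results of these data known. Replicates came from separate litters. Alternatives were a pseudocount of 1, no filter or a minimum FPKM of 1, upper-quartile rescaling, all 24 libraries in 1 fit, the replicate number as a block, a thalamus or cortical marker index as a covariate, and leaving out each library. Leaving out F2 PNO replicate 1 and F2 IUO replicate 4 together was chosen after seeing the data.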

Additional observations from a re-analysis of the deposited data

Results flagged for a closer look

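A Dixon gap test over the 4 libraries of each group set 6 of 66 groups apart, where chance at 1 in 20 gives 3.3. Gria1 in F1 SAL had a gap of 0.935 of its range, from replicate 4 at 40.29 FPKM against 28.16 to 28.95 in the others. Gria2 had gaps of 0.848 in F1 SAL (replicate 1, 56.13 FPKM against 21.09 to 26.41) and 0.937 in F1 PNO (replicate 2, 52.84 FPKM against 20.40 to 22.44). Grin1 in F1 IUO had a gap of 0.848, from replicate 2 at 115.9 FPKM against 123.1 to 124.4, and Grin2d in F1 PNO one of 0.839, from replicate 1 at 6.94 FPKM against 10.42 to 11.09. The log2 ratio of Grin2a to Grin2b in F2 PNO had a gap of 0.860, from replicate 1 at -5.52 against -1.68 to -1.05.

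The in utero difference of Grin2c differed between generations in a limma interaction, by -0.59 against SAL (unadjusted limma p = 0.00754, exact permutation p = 0.00327, limma adjusted p = 0.924). Against PNO it differed by -0.62 (unadjusted limma p = 0.00648, exact permutation p = 0.0049, limma adjusted p = 0.793). Neither passed the adjustment over all genes.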

How the results depend on the processing

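No subunit reached an adjusted p of 0.05 in any of 224 alternative limma fits. Of 120 subunit and comparison pairs, 15 were past p under 0.05, and these kept their side of it in all but 46 of their 264 alternatives. A pair not past p turned past it in 64 alternatives, and in 168 alternatives a pair not past p changed sign. Only Grin2d in F1 IUO against F1 PNO, not past p in the main analysis, reversed to a value past p. It went from -0.13 to 0.67 with the thalamus covariate, and the cause was not tested here or below.

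Counts of subunits past p moved as follows. With all 24 libraries in 1 fit they were 1 in F1 IUO against F1 SAL, 1 in F1 PNO against F1 SAL, 1 in F2 IUO against F2 SAL, 2 in F2 PNO against F2 SAL, 2 in F2 IUO against F2 PNO and 0 in F2 SAL against F1 SAL. With the thalamus covariate they were 0 in F1 PNO against F1 SAL, 3 in F2 PNO against F2 SAL, 2 in F2 IUO against F2 PNO, 2 in F2 SAL against F1 SAL and 2 in the IUO minus PNO interaction. With the cortical covariate they were 4, 2, 0, 3 and 3 in the same order, and 2 in F1 IUO against F1 PNO. Upper-quartile rescaling gave 2 in F1 IUO against F1 PNO, 2 in F2 PNO against F2 SAL and 0 in F2 IUO against F2 PNO. No filter gave 1 in F2 IUO against F2 SAL. Without F2 PNO replicate 1 and F2 IUO replicate 4 together they were 1 in F2 IUO against F2 SAL, 3 in F2 PNO against F2 SAL and 0 in F2 IUO against F2 PNO.

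Equal replicate numbers did not pair libraries: over 60 same-number pairs the correlation of deviations ran from -0.331 to 0.199 (median -0.016), and 4 of 24 libraries were closest to their own number. With the number as a replicate block the counts were 1 in F1 IUO against F1 SAL, 2 in F2 IUO against F2 PNO and 1 in F2 PNO against F1 PNO.

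Leaving out each library in turn, the counts ran from 0 to 2 in F1 IUO against F1 SAL, 0 to 3 in F1 PNO against F1 SAL, 1 to 4 in F1 IUO against F1 PNO, 0 to 1 in F2 IUO against F2 SAL, 1 to 3 in F2 PNO against F2 SAL, 0 to 2 in F2 IUO against F2 PNO, 0 to 2 in F2 SAL against F1 SAL, 3 to 5 in F2 IUO against F1 IUO and 0 to 2 in F2 PNO against F1 PNO. For the interactions they ran from 1 to 3 (IUO minus SAL), 0 to 1 (PNO minus SAL) and 1 to 3 (IUO minus PNO).

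The log2 ratio of Grin2a to Grin2b without both libraries was 0.39 in F2 PNO against F2 SAL and -0.54 in F2 IUO against F2 PNO, and its interactions were 0.066 (IUO minus SAL, 0.16 with a pseudocount of 1), 0.54 (PNO minus SAL) and -0.47 (IUO minus PNO). Leaving out each library in turn it ran from -0.575 to 0.0885 (F1 IUO minus F1 SAL), -0.502 to 0.0601 (F1 PNO minus F1 SAL), -0.23 to 0.23 (F1 IUO minus F1 PNO), -0.56 to -0.15 (F2 IUO minus F2 SAL), -0.948 to -0.342 (F2 SAL minus F1 SAL), -0.99 to -0.52 (F2 IUO minus F1 IUO), -1.10 to 0.39 (F2 PNO minus F2 SAL), -0.70 to 0.79 (F2 IUO minus F2 PNO) and -1.54 to -0.05 (F2 PNO minus F1 PNO). Its interactions ran from -0.39 to 0.27 (IUO minus SAL), -0.95 to 0.54 (PNO minus SAL) and -0.63 to 0.86 (IUO minus PNO). Of these omissions, that of F1 SAL replicate 3 alone took a ratio past 0.05, in F2 SAL minus F1 SAL (-0.948, exact p = 0.0286). The deposited values carry no depth, so low levels such as those of Grin2a have an unknown counting error, and with 4 libraries a group only differences that separate the groups wholly reach the smallest exact p.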
